A study of Mus musculus with 4 samples.

Results

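Cystatin C and the cathepsins were followed here through the cell types of the mouse thalamus after saline or collagenase. The members were 9 genes, chosen by symbol out of 40091 genes listed over the 4 libraries, and all 9 were listed in every library. They were 2 inhibitors, cystatin C (Cst3) and stefin B (Cstb), and 7 proteases, cathepsins B (Ctsb), C (Ctsc), D (Ctsd), K (Ctsk), L (Ctsl), S (Ctss) and Z (Ctsz). The libraries were made from nuclei of thalamic tissue of wild-type C57BL6 mice aged about 7 to 8 weeks. In the NS group (libraries C1 and C2, here NS 1 and NS 2) saline was injected into the right thalamus, at the VPM and VPL nuclei, and in the COL group (M1 and M2, here COL 1 and COL 2) Coll IV, a type IV collagenase that damages vessel walls, was injected at 0.01 U in 10 nl. Tissue was taken 7 days later and each library pooled 3 mice, so that the spread between mice within a pool was not measured.

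Cathepsins are proteases of the lysosome, the acidic compartment in which cells break down proteins they have taken up or no longer need. Most are cysteine proteases, while cathepsin D is an aspartic protease. Cystatin C is secreted and stefin B acts inside the cell, and both block cysteine cathepsins. In the brain, cathepsin S is known as a product of microglia and other myeloid cells, and cystatin C as a protein made in quantity by glia.

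The positions of the genes are those of GRCm38. Cst3 (ENSMUSG00000027447, chr2:148871722-148875692, minus strand) and Ctsz (ENSMUSG00000016256, chr2:174427493-174439039, minus) are on chromosome 2, and Ctsk (ENSMUSG00000028111, chr3:95499256-95509362, plus) and Ctss (ENSMUSG00000038642, chr3:95526786-95556403, plus) are neighbours on chromosome 3. Ctsc (ENSMUSG00000030560, chr7:88278085-88310888, plus) and Ctsd (ENSMUSG00000007891, chr7:142375911-142388038, minus) are on chromosome 7. Cstb (ENSMUSG00000005054, chr10:78425669-78427622, plus), Ctsl (ENSMUSG00000021477, chr13:64359337-64370890, minus) and Ctsb (ENSMUSG00000021939, chr14:63122462-63145923, plus) complete the set. Other annotated genes overlap 6 of the spans: Fdft1 on the opposite strand of Ctsb, Nelfcd on that of Ctsz, the long RNA Gm26522 on that of Ctsc, the antisense Gm47123 and the pseudogene Gm49230 at Ctsl, Gm49369 on the same strand as Ctsd, and the pseudogene Hmgb1-ps5 inside Ctss. How reads in such overlaps were assigned is not given in the sources used here, so these 6 genes' counts may hold reads of their neighbours.

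RefSeq promoter windows (GRCm38.p6, 250 bases before the transcript start to 50 after it) were found for 7 of the 9 genes, with no entry for Cstb and Ctsb. They were searched on both strands for CACGTG, the core of the site bound by the MiT/TFE factors that regulate lysosomal genes, and for GAGGAAGT, a purine-rich site of the kind bound by PU.1 in myeloid cells. CACGTG occurred in 2 of the 7 windows (Ctsd and Ctsl) and in 7.15% of all 32851 windows. GAGGAAGT or its reverse complement occurred in 2 of the 7 (Ctsc and Ctss) and in 3.20% of all windows. The longer TCACGTG, which contains CACGTG, occurred in Ctsd alone among the 7 and in 3.77% of all windows. The matches are shown as a description, and whether they go with the genes' pattern over the cell types was not tested. Over sums by cell type and library, Pearson's r was 0.65 between Ctsd and Ctsl. It was 0.98 between Ctsc and Ctss, the highest of any pair of members. It was 0.95 between Ctsd and Ctsc and 0.96 between Ctsd and Ctss, pairs without a shared match. The matches are written on the gene's strand in capitals. Distances are counted from the RefSeq start, and for Ctsd and Ctsl that start lies inside the GENCODE span given above, as do the Ctsl match and the nearer Ctsd match.
Ctsd (chr7:142387908-142387937, match from base 99 before the start): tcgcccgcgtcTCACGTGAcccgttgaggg
Ctsd (chr7:142388055-142388077, match from base 245 before the start): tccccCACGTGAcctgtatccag
Ctsl (chr13:64370739-64370768, match from base 236 before the start): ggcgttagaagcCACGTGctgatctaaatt
Ctsc (chr7:88277923-88277952, match from base 151 before the start): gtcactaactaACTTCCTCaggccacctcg
Ctss (chr3:95526773-95526802, match across the start, from base 2 before it): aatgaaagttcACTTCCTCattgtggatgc
These letters describe the windows, and binding was not measured.

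The 4 files held between 68746459 and 77557870 unique molecular identifiers (UMIs, each standing for 1 captured RNA molecule) and 32332 nuclear barcodes, of which 32291 were kept. Only 102 barcode sequences occurred in more than 1 library. Median UMIs per nucleus were 6489 and 4649 in NS and 8664 and 8691 in COL, so levels are given as CPM, the UMIs of a gene per 1000000 UMIs of the same library and cell type, with UMIs per nucleus added for some results. Clusters built without the 9 genes were named from marker lists as neuron-like (14971 nuclei), oligodendrocyte-like (8826), astrocyte-like (2768), OPC-like (oligodendrocyte precursor, 1344), microglia-like (1585), macrophage-like (800) and T and NK cell-like (146), and the short names are used from here on. A further 1293 nuclei lay in clusters called mixed and 558 in clusters left unnamed. The unnamed ones include cluster 24 (174 nuclei), which scored for pericyte and fibroblast markers and for endothelial markers. Mixed and unnamed nuclei were not tested as types but are part of the sums over all nuclei. Macrophages had 3 and 5 nuclei in NS against 318 and 474 in COL, and T and NK cells 8 and 4 against 53 and 81, so neither type was tested between groups. NS and COL microglia lay in different clusters: cluster 12 held 319 of 321 and 338 of 343 NS nuclei, and the COL nuclei lay in cluster 10 (294 and 417) and in cluster 23 (74 and 127), which was led by the division genes Top2a and Mki67. The other types were split in a like way. NS astrocytes lay in cluster 5 (1163 and 1051 nuclei, COL 2 and 4) and COL astrocytes in cluster 17 (199 and 272, NS 45 and 32). NS oligodendrocytes lay in clusters 1 (1620 and 2464 nuclei, COL 3 and 3) and 7 (496 and 1048, COL 0 and 2), and COL oligodendrocytes in clusters 3 (1395 and 1226, NS 2 and 6) and 15 (230 and 328, NS 0 and 3). OPC cluster 13 held 308 and 318 NS and 2 and 9 COL nuclei, and cluster 11 held 92 and 113 NS and 208 and 294 COL nuclei. Neurons differed between libraries of a group too: cluster 0 held 2061 and 2646 NS and 7 and 60 COL nuclei, cluster 2 held 87 and 151 against 982 and 1721, cluster 4 held 1692 and 333 against 22 and 241, and 327 of the 361 nuclei of cluster 18 came from NS 2. Changes within a type were thus measured between nuclei of different clusters. COL 1 was lower than COL 2 for most members: in astrocytes, oligodendrocytes, OPC and neurons, COL 2 had the higher CPM in 35 of 36 gene and cell type pairs. These pairs all come from the same 2 libraries. How many of all genes lay in this order was not counted, so it is not shown to be particular to the members.

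Among the cell types, Ctsc and Ctss were concentrated in myeloid cells, and Ctsb, Ctsd, Ctsl and Ctsz were highest there but present in all types. Cst3 was highest in microglia and was also present in all types. These levels are a description of each gene across cell types and were not tested. Ctss, the cathepsin that works beyond the acidic lysosome and trims the invariant chain of antigen presentation, was at 508 and 637 CPM in NS microglia and at 515 and 547 CPM in COL microglia. In COL macrophages it was at 965 and 910 CPM, and in NS neurons at 3.89 and 6.87 CPM. Ctsc, which activates granule serine proteases, was at 143 and 119 CPM in NS microglia, 166 and 182 CPM in COL microglia and 225 and 254 CPM in COL macrophages. In astrocytes, oligodendrocytes, OPC and neurons its highest value was 15.3 CPM, in COL 2 astrocytes.

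The order of the types was not the same for each gene. Ctsb, an endo- and exopeptidase, was at 1365 and 1405 CPM in COL macrophages, 587 and 621 CPM in COL microglia and 62 to 207 CPM in the other 4 main types of COL. Ctsd was at 895 and 961 CPM in COL macrophages and at 652 and 802 CPM in COL microglia, both above the other 4 main types of COL. Cst3 was highest in microglia, at 929 and 1577 CPM in NS, followed by astrocytes at 556 and 672 CPM. Oligodendrocytes came next with 281 and 360 CPM of Cst3 in NS, OPC with 193 and 272 CPM and neurons with 126 and 153 CPM. No neighbours in this order overlapped in NS, although OPC of NS 2 (272 CPM) came close to oligodendrocytes of NS 1 (281 CPM). The order leaves out the unnamed nuclei, which had 528 and 703 CPM of Cst3 in NS and overlapped astrocytes.

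**Figure D1:**
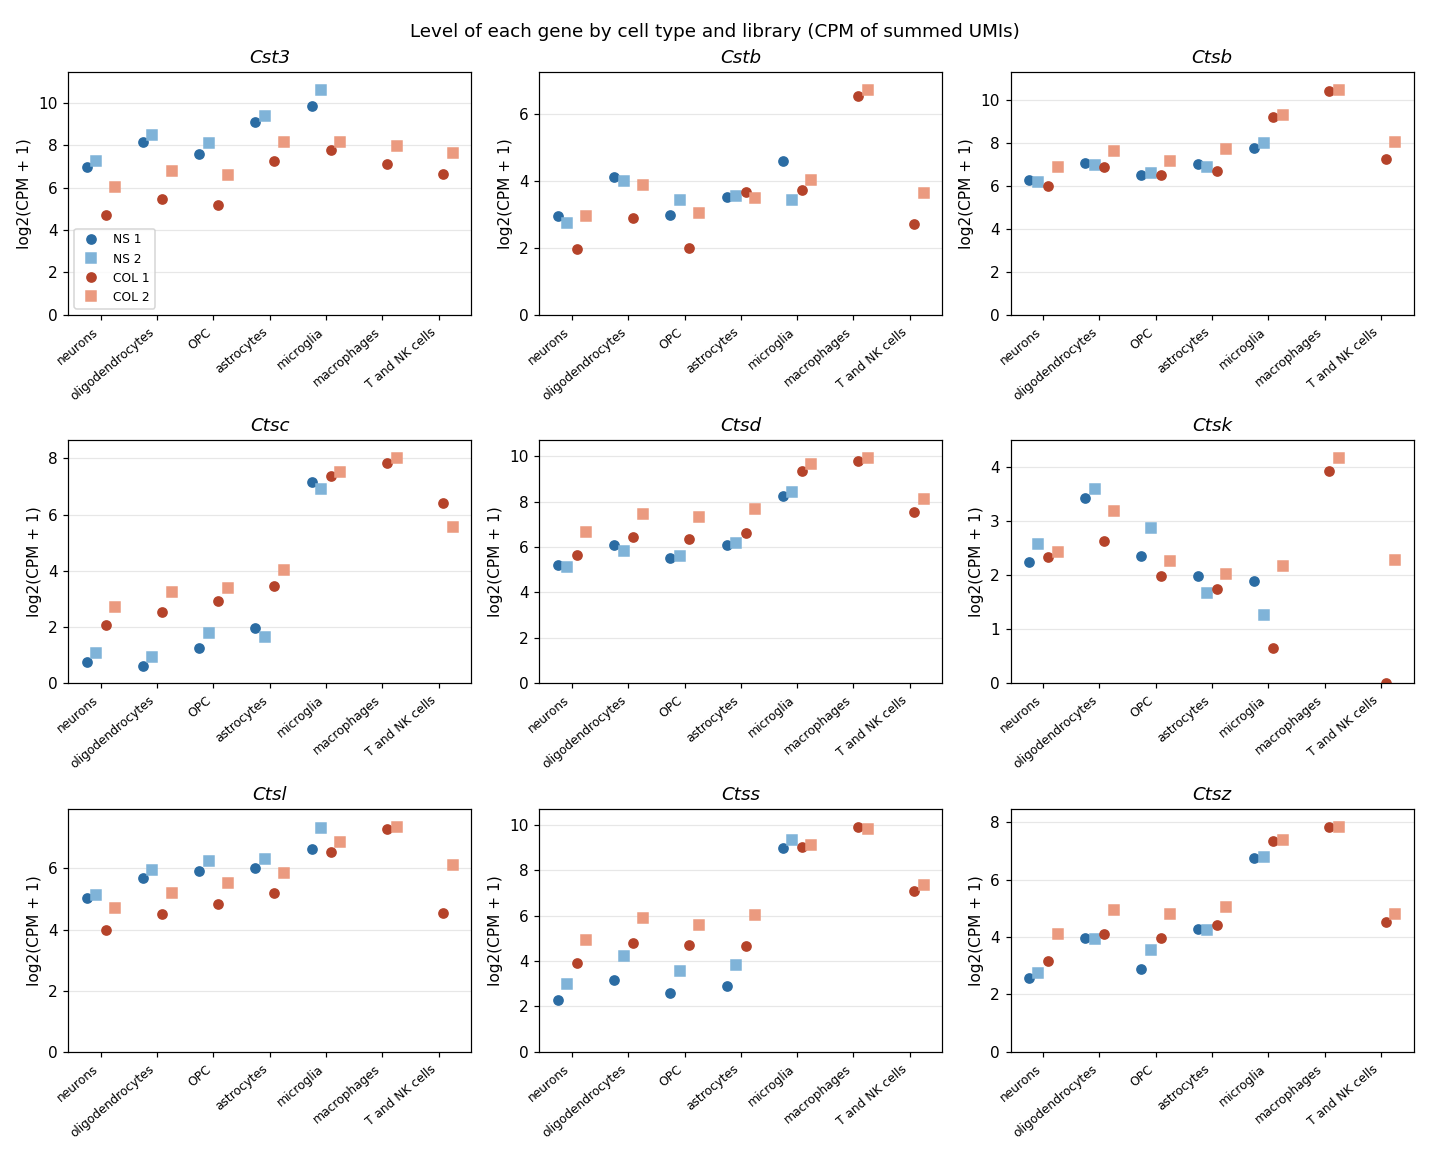
Level of each of the 9 genes as log2(CPM + 1), with a point for each library (NS 1 and NS 2 in blue, COL 1 and COL 2 in red) in each cell type. Macrophages and T and NK cells are drawn for COL only, since NS held 3 to 8 such nuclei per library. COL points of Cst3 lie below the NS points in all 5 types with both groups, and Ctsb, Ctsc, Ctsd, Ctss and Ctsz are highest in macrophages.

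Macrophages and microglia of the same COL library differed most in Cstb and Ctsk. Cstb was at 92.0 and 104 CPM in macrophages and at 12.1 and 15.1 CPM in microglia, ratios of 7.60 and 6.85. Ctsk, the collagen-degrading cathepsin of osteoclasts, was low throughout, at 14.1 and 16.8 CPM in macrophages and 0.576 and 3.51 CPM in microglia. The macrophage to microglia ratio was 2.33 and 2.26 for Ctsb, 1.88 and 1.67 for Ctss, 1.71 and 1.41 for Ctsl, and between 1.199 and 1.40 for Ctsc, Ctsd and Ctsz. Cst3 alone was lower in macrophages in both libraries, with ratios of 0.635 and 0.867. Both types were defined by clustering these nuclei, so the ratios carry no test. When nuclei were assigned by marker UMIs instead, 306 of the 800 macrophage nuclei kept that name, 52 became microglia and 361 stayed unassigned. With that assignment, 12 of the members' mean levels in microglia and COL macrophages moved by at least the SD of the 2 libraries.

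The cell types that held a gene's UMIs differed between the groups. Of all Ctss UMIs, microglia held 45.8% and 38.9% in NS and 25.1% and 24.7% in COL, where macrophages held 40.3% and 34.4%. Of all Ctsc UMIs, microglia held 51.7% and 43.6% in NS, and macrophages 36.7% and 36.6% in COL. Neurons, the most numerous nuclei, held 63.9% and 55.1% of Ctsb UMIs in NS and 39.5% and 36.5% in COL. Macrophages held 33.7% and 30.3% of Cstb UMIs in COL. For Cst3 the share of macrophages in COL was 7.57% and 8.81%, and neurons held 42.3% to 50.4% in all 4 libraries. Of the UMIs of all genes, neurons held 72.6% and 66.7% in NS and 73.1% and 63.7% in COL. Their shares of Ctsb and Cst3 UMIs were thus below their share of all UMIs in each library. Macrophages held 2.14% and 3.42% of all UMIs in COL.

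**Figure D2:**
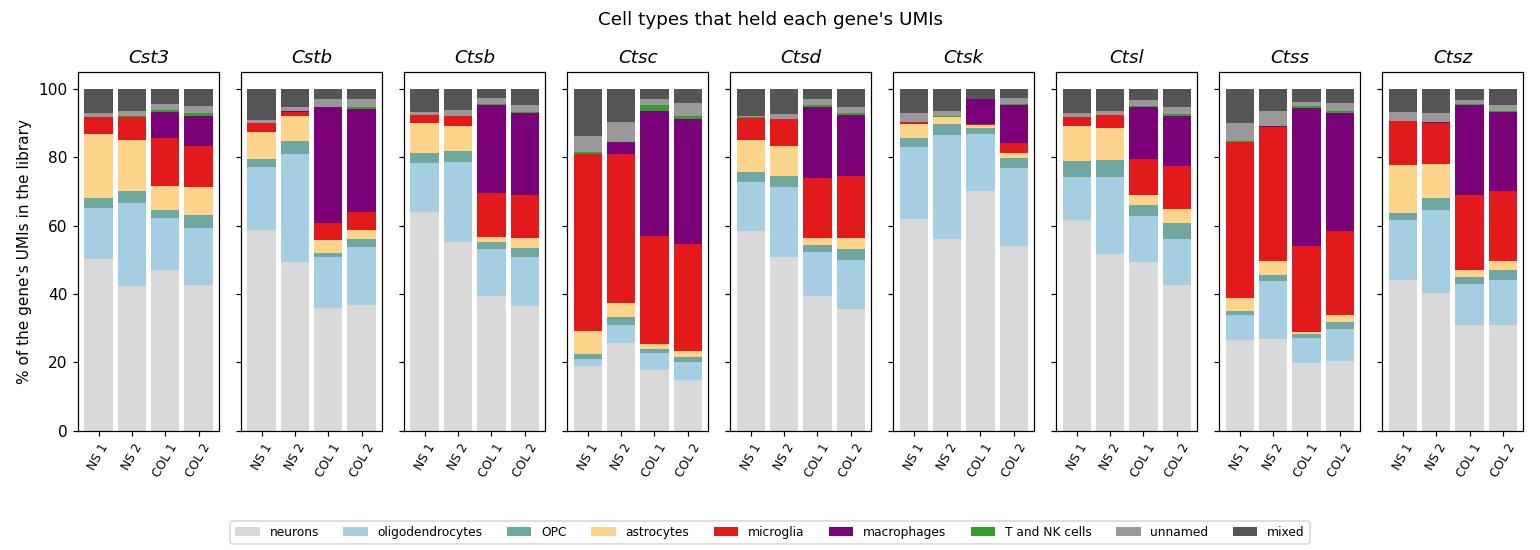
Share of each gene's UMIs in a library (%, bars add to 100) that lay in each cell type, for the 4 libraries. Microglia and macrophages together hold most Ctsc and Ctss UMIs of COL, while neurons hold the largest share of the UMIs of the other 7 genes in every library. Neurons also hold 63.7% to 73.1% of the UMIs of all genes.

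Cst3 was lower in COL in every cell type that could be compared, with no overlap between the groups. Here and below, the share of all genes without overlap was not counted. With 2 against 2 libraries, an exact permutation test of such groups cannot go below p = 0.333. In microglia Cst3 fell from 929 and 1577 CPM in NS to 219 and 289 CPM in COL, a log2 fold change of -2.26 ± 0.23 (SE, n = 2 libraries per group, adjusted p = 2.6e-05, edgeR quasi-likelihood test). UMIs of Cst3 per microglial nucleus were 2.15 and 3.29 in NS and 1.02 and 1.495 in COL, although COL microglia had more UMIs per nucleus (medians of 4054 and 4335 against 2230 and 1993). Per nucleus, too, the groups did not overlap in any of the 5 types, and they were closest in astrocytes, with 2.197 and 2.298 UMIs in NS and 0.975 and 2.004 in COL. In astrocytes it fell from 556 and 672 to 152 and 283 CPM (-1.47 ± 0.25, edgeR adjusted p = 0.0061). The gene also fell in oligodendrocytes, from 281 and 360 to 43.7 and 111 CPM (-2.01 ± 0.37, edgeR adjusted p = 0.011). With libraries left out in turn, this change ranged from -2.79 to -1.51. In OPC the values were 193 and 272 CPM in NS and 35.5 and 95.3 CPM in COL, and the change was -1.76 ± 0.30 (edgeR adjusted p = 0.0020), which did not pass in DESeq2 (adjusted p = 0.084). It ranged from -2.64 to -1.27 with libraries left out in turn.

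In neurons Cst3 was at 126 and 153 CPM in NS and 25.3 and 64.9 CPM in COL, and the log2 fold change of -1.52 ± 0.38 did not pass (edgeR adjusted p = 0.11). COL 1 and COL 2 differed more from each other here than NS 1 and NS 2, with COL 2 at 2.56 times COL 1. With libraries left out in turn, which leaves 1 library in a group, the log2 fold change in neurons ranged from -2.26 to -1.07. The few T and NK cells of COL, which are not known as a source of cystatin C, carried 99.9 and 199 CPM, between the COL values of oligodendrocytes and astrocytes. Astrocytes were 12.5% and 10.4% of nuclei in NS and 3.39% and 4.41% in COL, and the summed CPM of the 10 astrocyte markers was lower in COL in other types as well. It was 575 and 478 CPM in NS and 220.1 and 221 CPM in COL microglia, 421 and 319 against 184 and 215 CPM in oligodendrocytes, and 720 and 621 against 477 and 517 CPM in OPC. In neurons, at 280 and 231 CPM in NS and 234 and 170 CPM in COL, the groups overlapped. How far free RNA contributed to Cst3 in each type was not tested. Apoe, the gene of a lipid carrier, was also lower in COL 1 than in COL 2. In astrocytes it fell from 1331 and 1221 CPM to 301 and 734 CPM (-1.28 ± 0.31, edgeR adjusted p = 0.023), and it fell in OPC (-0.95 ± 0.31, edgeR adjusted p = 0.047). It did not pass in microglia, where COL (178 and 752 CPM) lay on both sides of NS (459 and 530 CPM), nor in oligodendrocytes (-0.91), neurons (-0.25) or over all nuclei (-0.24). COL macrophages, a type not tested between groups, had higher levels of Apoe, from 1397 to 2477 CPM over the 2 libraries. They held a mean of 28.5% of the Apoe UMIs of a COL library.

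Within microglia, 3 of the 8 members tested rose (Ctsb, Ctsd, Ctsz), 1 fell (Cst3) and 4 did not pass. Of all 12115 genes tested in microglia, 14.4% rose and 14.5% fell. The median log2 fold change of the 8 members was 0.20, and that of all genes was -0.0018. Ctsk was left out by the filter on low counts, at 0.576 to 3.51 CPM.

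Ctsb was the member with the largest rise in microglia. It rose from 217 and 253 CPM in NS to 587 and 621 CPM in COL (log2 fold change 1.41 ± 0.16, edgeR adjusted p = 4.6e-05), and from 0.502 and 0.528 to 2.74 and 3.22 UMIs per nucleus. Ctsd, the aspartic protease that starts the breakdown of many lysosomal substrates, rose from 303 and 341 to 652 and 802 CPM (1.22 ± 0.16, edgeR adjusted p = 0.00014). Ctsz, an exopeptidase that removes residues from the carboxyl end, rose from 108 and 110 to 164 and 167 CPM (0.65 ± 0.17, edgeR adjusted p = 0.013). For all 3 genes the groups did not overlap, but the call for Ctsz was lost without NS 1 (adjusted p = 0.11), without NS 2 (adjusted p = 0.059) and in DESeq2 (adjusted p = 0.078).

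Ctss in microglia was at 508 and 637 CPM in NS and 515 and 547 CPM in COL, with overlapping groups and a log2 fold change of -0.06 ± 0.16 (edgeR adjusted p = 0.80). With nuclei assigned by marker UMIs the direction turned, to 0.45 (adjusted p = 0.092). Per nucleus the counts were 1.17 and 1.33 UMIs in NS and 2.40 and 2.83 UMIs in COL, and COL nuclei also had more UMIs in all. Ctsc had 143 and 119 CPM in NS and 166 and 182 CPM in COL (0.46 ± 0.17, edgeR adjusted p = 0.059), and passed without a filter on low counts (adjusted p = 0.034), with doublets removed (0.046) and with nuclei assigned by marker UMIs (0.017). Ctsl, which is needed for bulk protein turnover in the lysosome, had 98.3 and 159 CPM in NS and 91.6 and 116 CPM in COL (-0.26 ± 0.23, edgeR adjusted p = 0.43). Cstb had 22.9 and 9.79 CPM in NS and 12.1 and 15.1 CPM in COL (-0.20 ± 0.44, edgeR adjusted p = 0.77).

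Markers of other myeloid cells moved with these values. The 9 macrophage markers summed to 9.43 and 72.7 CPM in NS microglia and to 172 and 188 CPM in COL microglia, against 2815 and 2495 CPM in COL macrophages, and all 9 had UMIs in COL microglia. The 9 microglial markers summed to 5479 and 5288 CPM in NS and to 2683 and 2584 CPM in COL microglia. In the COL microglia of cluster 10 Ctsb was at 579 and 668 CPM, and in the dividing cluster 23 at 605 and 536 CPM. The part of macrophage RNA in the microglial rises was not tested.

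In astrocytes, oligodendrocytes and OPC, Ctsc, Ctsd and Ctss rose and Cst3 fell. Ctsc had 14 and 8 UMIs in NS astrocytes, 4 and 10 in NS oligodendrocytes and 3 and 5 in NS OPC. It passed the filter on low counts in these types only through COL, so its calls could only be rises and add no support. In astrocytes 3 of 8 members tested rose (Ctsc, Ctsd, Ctss) and 1 fell (Cst3), where 7.45% of 14543 genes rose and 8.18% fell. In oligodendrocytes Ctsc, Ctsd and Ctss rose out of 9 tested and Cst3 and Ctsl fell, against 9.66% and 12.2% of 17147 genes. In OPC 4 of 8 rose (Ctsc, Ctsd, Ctss, Ctsz) and Cst3 and Ctsl fell, against 8.24% and 10.4% of 13388 genes. The median log2 fold change of the members was 0.49 in astrocytes, 0.32 in oligodendrocytes and 0.86 in OPC, and that of all genes was -0.03, -0.03 and -0.01. Ctsk was not tested in astrocytes and OPC. Without COL 2 there were 2 calls in astrocytes, Cst3 and a gained call for Ctsl, where 2492 of 16110 genes were called. Without NS 1 only Cst3 was called in OPC, and calls over all genes were also fewer there, 488 of 13968 against 2501 of 13388. DESeq2 called 2 members in OPC, Ctsd and Ctss, and 1024 of 13388 genes.

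Ctss was far lower in these glia than in microglia. In astrocytes it went from 6.49 and 13.2 to 24.05 and 63.4 CPM (2.24 ± 0.46, edgeR adjusted p = 0.012), which was 0.0257 and 0.0452 UMIs per nucleus in NS and 0.154 and 0.449 in COL. Without COL 2 the change was 1.32 and did not pass (adjusted p = 0.076), and without NS 2 it was 2.84. In oligodendrocytes it went from 8.01 and 17.5 to 27.1 and 57.9 CPM (1.74 ± 0.43, edgeR adjusted p = 0.026), a call lost in DESeq2 (adjusted p = 0.091), and the change was 2.53 without NS 2 and 1.13 without COL 2. On the log2 scale the largest rise of any member was that of Ctsc in oligodendrocytes, from 0.543 and 0.889 to 4.86 and 8.36 CPM (3.17 ± 0.47). These were 4 and 10 UMIs in NS and 46 and 85 UMIs in COL. Ctsc passed the filter on low counts there only through COL, so it could be called in 1 direction only. In OPC, Ctss rose from 5.01 and 10.7 to 24.8 and 47.9 CPM (2.27 ± 0.39, edgeR adjusted p = 0.0020), with a change of 2.97 without NS 2 and a call lost without NS 1 (adjusted p = 0.069). None of these groups overlapped.

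The same cell types carried more macrophage marker RNA in COL. The 9 macrophage markers summed to 2.31 and 3.82 CPM in NS oligodendrocytes, where Ms4a7, Lyve1 and Clec4n were at 0 in both libraries, and to 20.6 and 32.6 CPM in COL oligodendrocytes. In astrocytes they summed to 7.96 and 14.05 CPM in NS and 29.5 and 44.5 CPM in COL. In OPC the sums were 2.74 and 5.34 CPM in NS and 19.5 and 28.9 CPM in COL. The sums of the 9 microglial markers overlapped between the groups, with 84.8 and 94.1 CPM in NS oligodendrocytes and 65.4 and 98.8 CPM in COL ones. T and NK cells of COL held 133 and 165 CPM of Ctss and 83.2 and 46.0 CPM of Ctsc. The part of myeloid RNA in the rises of Ctss and Ctsc was not tested.

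Ctsd was present in all types of NS, at 33.8 to 72.4 CPM outside microglia in the 4 types tested. It rose in astrocytes from 68.0 and 72.4 to 97.7 and 205 CPM (1.15 ± 0.28, edgeR adjusted p = 0.024). It rose in oligodendrocytes from 67.3 and 55.3 to 85.7 and 176 CPM (1.14 ± 0.29, edgeR adjusted p = 0.028). In OPC it went from 44.2 and 47.1 to 81.6 and 160 CPM (1.45 ± 0.25, edgeR adjusted p = 0.0020). COL 2 was above COL 1 in each of the 3 types, and without COL 2 the change in astrocytes was 0.50 and did not pass (adjusted p = 0.12).

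Ctsl went the other way in CPM. In oligodendrocytes it fell from 50.6 and 61.3 to 21.5 and 35.3 CPM (-0.94 ± 0.24, edgeR adjusted p = 0.031), and in OPC from 59.7 and 75.2 to 27.8 and 45.2 CPM (-0.83 ± 0.23, edgeR adjusted p = 0.023). Per nucleus the groups overlapped, with 0.176 and 0.196 UMIs in NS and 0.125 and 0.230 in COL oligodendrocytes, and 0.328 and 0.360 in NS and 0.224 and 0.393 in COL OPC, so the fall was one of Ctsl relative to all UMIs. The oligodendrocyte call was lost without NS 2 (adjusted p = 0.15), and the OPC call without NS 1, NS 2 or COL 1 (adjusted p = 0.096, 0.26 and 0.094). Ctsb passed in none of the 3 glial types, with 126 and 114 CPM in NS astrocytes and 102 and 207 CPM in COL ones, so that the COL libraries lay on both sides of NS. Per nucleus, Ctsb was at 0.498 and 0.391 UMIs in NS and 0.652 and 1.47 UMIs in COL astrocytes, without overlap. With libraries left out in turn, the log2 fold change of Ctsb ranged from -0.22 to 0.81 in astrocytes. It ranged from -0.063 to 0.64 in oligodendrocytes and from 0.055 to 0.63 in OPC. Ctsz in OPC rose from 6.38 and 10.7 to 14.8 and 26.6 CPM (1.34 ± 0.38, edgeR adjusted p = 0.027), a call lost without NS 1 or COL 2 (adjusted p = 0.26 and 0.15).

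In neurons, whose nuclei lay in clusters that differed by group and by library, none of the 9 members passed, and 0.0% of the 23750 genes tested did so in edgeR. At an unadjusted p under 0.05 the numbers were 6 members and 6702 genes, and DESeq2 called 5 members (Cst3, Ctsc, Ctsd, Ctss, Ctsz) and 2493 genes. The members' median log2 fold change was 0.39 against 0.02 for all genes. The 9 macrophage markers summed to 6.86 and 7.83 CPM in NS neurons and to 11.6 and 22.8 CPM in COL neurons. The 9 microglial markers overlapped, at 58.6 and 76.6 CPM in NS and 31.8 and 61.7 CPM in COL. The part of myeloid RNA in the neuronal values was not tested. Ctsd was at 35.6 and 33.8 CPM in NS and 49.8 and 102 CPM in COL (1.26 ± 0.27, edgeR adjusted p = 0.11), without overlap. Ctsb was at 76.5 and 71.2 CPM in NS and 61.8 and 115 CPM in COL, on both sides of NS. Ctsk, at 3.75 and 4.97 CPM in NS and 4.07 and 4.40 CPM in COL, did not pass (0.12 ± 0.27, edgeR adjusted p = 0.79). With libraries left out in turn, the log2 fold change in neurons ranged from 0.73 to 1.60 for Ctsd and from 2.03 to 2.84 for Ctsc. It ranged from 1.56 to 2.65 for Ctss and from 0.77 to 1.65 for Ctsz.

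**Figure D3:**
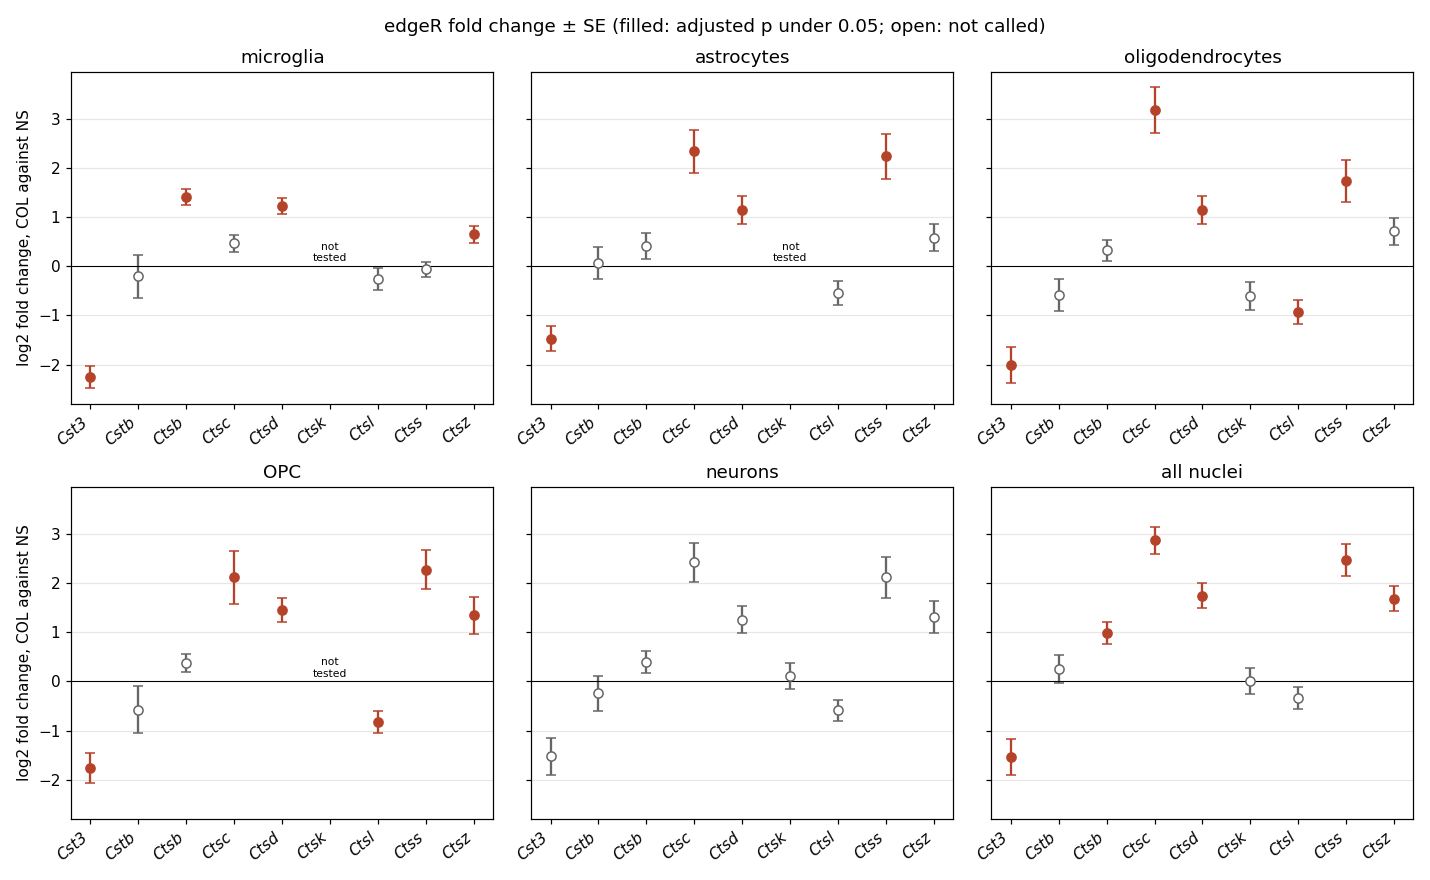
Log2 fold change of each gene, COL against NS, with its SE (bars), in 5 cell types and over all nuclei. Filled points passed edgeR's adjusted p of 0.05 and open ones did not. Cst3 lies below 0 in every panel, Ctsb passes in microglia and over all nuclei only, and Ctsc and Ctss lie high in every panel but that of microglia.

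Summed over all nuclei, 5 members rose (Ctsb, Ctsc, Ctsd, Ctss, Ctsz) and Cst3 fell, against 5.02% and 4.43% of 25570 genes. The members' median change was 0.99 and that of all genes 0.02. Ctss rose from 10.6 and 17.04 to 51.3 and 90.5 CPM (2.47 ± 0.32, edgeR adjusted p = 0.010), although it did not pass in microglia, the type with the largest share of its NS UMIs. Ctsc rose from 2.64 and 2.84 to 13.1 and 23.7 CPM (2.87 ± 0.27, edgeR adjusted p = 0.0042). Ctsb rose from 86.9 and 86.2 to 114 and 200.4 CPM (0.99 ± 0.22, edgeR adjusted p = 0.042), a call lost without NS 1 (adjusted p = 0.083) or NS 2 (adjusted p = 0.055). Cst3 fell from 182 and 242 to 39.3 and 97.0 CPM (-1.54 ± 0.36, edgeR adjusted p = 0.049), a call lost when doublets were removed (adjusted p = 0.051). The change ranged from -2.26 to -1.10 with libraries left out in turn. In these sums more cells of a type and more RNA per cell cannot be told apart.

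Whether microglia changed differently from the rest was tested directly, as the change in microglia minus the mean change in astrocytes, oligodendrocytes, OPC and neurons. Of the 9 members, Ctsb and Ctsl were higher in this comparison and Ctsc and Ctss lower, against 5.28% and 3.83% of 18282 genes. The median over the members was 0.15 and over all genes 0.10. The difference was 1.199 ± 0.17 for Ctsb (edgeR adjusted p = 2.7e-05) and 0.59 ± 0.16 for Ctsl (edgeR adjusted p = 0.019). It was -2.02 ± 0.23 for Ctss (edgeR adjusted p = 8.9e-07), which rose in other glia, and -1.94 ± 0.27 for Ctsc (edgeR adjusted p = 2.0e-05). Ctsc had few UMIs in other glia of NS and could be called there in 1 direction only, so its rises there add no support. Both Ctss and Ctsc were far lower in the other types than in microglia, and these are differences between fold changes. The call for Ctsl was lost without the library term (adjusted p = 0.45), without NS 1 (adjusted p = 0.30) and without COL 1 (adjusted p = 0.096).

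Ctsd rose in microglia and in 3 other types, and the difference between microglia and the rest was 0.15 ± 0.17 (edgeR adjusted p = 0.67). For Cst3 it was -0.35 ± 0.17 (edgeR adjusted p = 0.25), and it ranged from -0.66 to 0.099 with libraries left out in turn. In the same comparison made for astrocytes, oligodendrocytes, OPC and neurons, 0 of 9 members passed in edgeR, where 2.88%, 4.33%, 3.26% and 9.66% of genes did. At an unadjusted p under 0.05 there were 0, 2, 0 and 3 members in the same order. The share of all genes at that threshold was not counted, so these numbers are not shown to exceed it. No other tool was run on this comparison.

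**Figure D4:**
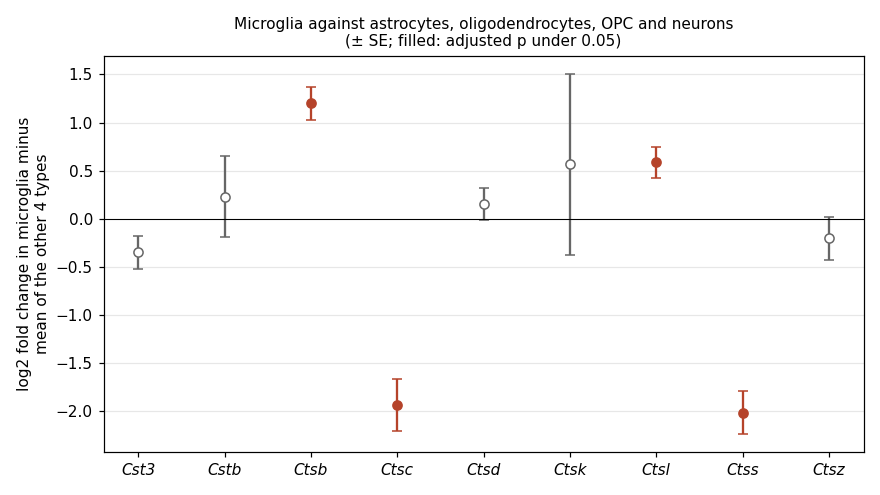
Log2 fold change (COL against NS) in microglia minus the mean over astrocytes, oligodendrocytes, OPC and neurons, with its SE (bars), for the 9 genes. Filled points passed edgeR's adjusted p of 0.05. Ctsb (1.199) and Ctsl (0.59) lie above 0, Ctsc (-1.94) and Ctss (-2.02) lie below it, and Cst3 (-0.35) and Ctsd (0.15) did not pass.

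Other genes of the lysosome were counted from fixed lists, to be read against the shares of all genes called in the same cell type. Of 16 other cathepsins 7 were listed in the files and 4 were tested in microglia, where Ctsa, a carboxypeptidase that also protects other lysosomal enzymes, rose from 67.3 and 71.3 to 132 and 111 CPM (0.85 ± 0.20, edgeR adjusted p = 0.0072). Ctsf, a cysteine cathepsin, fell from 36.4 and 40.5 to 20.2 and 20.03 CPM, so that 1 of 4 rose and 1 fell, against 14.4% and 14.5% of all genes. In astrocytes and in oligodendrocytes 2 of 4 fell (Ctsf and Ctso) and 0 rose, where 8.18% and 12.2% of all genes fell. Ctsf fell by 0.92 and 0.99 on the log2 scale in these types. In OPC 1 of 4 rose and 1 fell, against 8.24% and 10.4% of all genes. Ctso fell in astrocytes, oligodendrocytes and OPC, for instance from 88.4 and 60.2 to 36.5 and 35.8 CPM in astrocytes (-1.02 ± 0.22, edgeR adjusted p = 0.013). Ctsh, an aminopeptidase, rose in OPC from 0.456 and 2.91 to 4.73 and 9.12 CPM. It passed the filter on low counts only through COL. Of 20 other cystatins and stefins none was tested in microglia, astrocytes and OPC, and in oligodendrocytes the only gene tested, Cst6, fell from 2.04 and 2.22 to 0.211 and 0.689 CPM, where 12.2% of all genes fell. Cst6 passed the filter on low counts only through NS.

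Of 36 lysosomal hydrolases and activators, 34 were tested in microglia, where 5 rose and 4 fell (median 0.13), near the shares of all genes there (14.4% rose and 14.5% fell). Lgmn, the asparagine endopeptidase that processes cathepsins and is itself inhibited by cystatin C, rose from 735 and 664 to 1028 and 956 CPM (0.55 ± 0.14, edgeR adjusted p = 0.011). Galns, a sulfatase, rose from 16.2 and 13.98 to 34.0 and 38.3 CPM in microglia, whereas the sphingomyelinase Smpd1 fell from 28.3 and 36.3 to 9.22 and 13.004 CPM and the sulfatase Ids from 72.7 and 48.9 to 19.6 and 23.9 CPM. In astrocytes 2 of 35 rose and 0 fell, in oligodendrocytes 3 of 36 rose and 2 fell, and in OPC 4 of 33 rose and 2 fell, where 7.45%, 9.66% and 8.24% of all genes rose and 8.18%, 12.2% and 10.4% fell. Grn, the progranulin gene, rose in all 3 of these types, as in OPC from 10.03 and 12.1 to 38.4 and 46.0 CPM (1.96 ± 0.27, edgeR adjusted p = 5.0e-04). The phosphatase Acp5 had 0 UMIs in NS oligodendrocytes, which allows up to 0.161 CPM over both libraries, and was at 1.16 and 2.16 CPM in COL, at least 10.4-fold higher. It passed the filter on low counts only through COL.

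Of 17 lysosomal membrane proteins, 3 rose and 1 fell in microglia (median 0.06), against 14.4% and 14.5% of all genes. Gpnmb had 0 UMIs in NS microglia, which allows up to 2.06 CPM over both libraries, and was at 42.6 and 106 CPM in COL, at least 39.997-fold higher. The galectin gene Lgals3 rose from 1.35 and 0 to 50.1 and 61.2 CPM in microglia. Gpnmb was among the leading genes of the macrophage cluster, and Lgals3, Gpnmb and the macrophage protein gene Cd68 also rose in astrocytes (4 of 17 rose, 0 fell), oligodendrocytes (5 rose, 1 fell) and OPC (4 rose, 1 fell). Of all genes, 7.45%, 9.66% and 8.24% rose and 8.18%, 12.2% and 10.4% fell in these types. Gpnmb and Lgals3 passed the filter on low counts only through COL in microglia and in these types. Cd68 did so in astrocytes and OPC. The calcium channel gene Tpcn2 rose in microglia from 12.1 and 9.79 to 43.2 and 33.4 CPM (1.83 ± 0.37, edgeR adjusted p = 0.0024).

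The vacuolar proton pump acidifies the lysosome, where cathepsins work. Of 16 genes of the pump tested, 7 fell and 1 rose in microglia, 4 fell and 0 rose in astrocytes, 6 fell and 0 rose in oligodendrocytes, and 6 fell and 1 rose in OPC. Of all genes, 14.5%, 8.18%, 12.2% and 10.4% fell in these types. The medians were -0.06, -0.33, -0.42 and -0.50 in the same order. Over all nuclei 2 of 17 fell and 1 rose (median 0.03), where 4.43% of all genes fell and 5.02% rose. Atp6v0c, a subunit of the membrane sector, fell in microglia from 529 and 561 to 105 and 178 CPM (-1.88 ± 0.21, edgeR adjusted p = 4.0e-05), and by 1.76, 1.85 and 1.81 on the log2 scale in astrocytes, oligodendrocytes and OPC. Atp6v1f fell in the same 4 types, in oligodendrocytes from 49.4 and 44.3 to 5.17 and 16.0 CPM. COL 1 was lower than COL 2 for both genes in each of them, as it was for Cst3.

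Of 12 genes for sorting to the lysosome and MiT/TFE factors, 11 were tested in microglia, where 4 rose and 0 fell (median 0.12), against 14.4% and 14.5% of all genes. Tfec, a MiT/TFE factor of myeloid cells, was at 0 and 1.40 CPM in NS and at 36.3 and 38.0 CPM in COL. Tfec and Igf2r passed the filter on low counts only through COL, so their calls could only be rises. Gnptab, which starts the mannose 6-phosphate tag that carries cathepsins to the lysosome, rose from 43.1 and 39.1 to 97.9 and 108 CPM (1.37 ± 0.22, edgeR adjusted p = 0.00057). Igf2r, a receptor for that tag, was at 5.39 and 6.99 CPM in NS and at 15.6 and 22.5 CPM in COL. In astrocytes M6pr, the other receptor, fell from 32.7 and 30.8 to 17.8 and 17.9 CPM (-0.81 ± 0.24, edgeR adjusted p = 0.046), where 1 of 10 passed and 7.45% of all genes rose and 8.18% fell. In oligodendrocytes and in OPC 0 of 10 passed by edgeR, where 9.66% and 8.24% of all genes rose and 12.2% and 10.4% fell. In neurons 0 genes of any of these lists passed in edgeR, where no gene did.

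Across 24 sums of UMIs by cell type and library, Ctsb, Ctsc, Ctsd, Ctss and Ctsz were closely correlated with one another, the lowest r being 0.848 between Ctsb and Ctsc. Pearson's r of log2(CPM + 1) was 0.98 between Ctsc and Ctss, 0.97 between Ctsd and Ctsz and 0.96 between Ctsd and Ctss. Cst3 stood apart from them, with r of 0.245 to Ctsc and Ctsd and 0.76 to Ctsl, its closest member. Ctsk followed no member above 0.54, the value to Cstb. The sums share libraries, depth and the contrast of myeloid with other cells, so these are descriptions.

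Among 10927 genes, the closest to Ctss were Ctsh (0.98), Fcer1g and Fcgr1, and to Ctsc Vav1 (0.98), Fcgr1 and Rbm47. The closest to Ctsd were Grn (0.98), Mpeg1 and Ctsz, and to Ctsz Tcirg1 (0.97), Grn and Ctsd. The closest to Ctsb were Ctsa (0.96), Dnase1l1 and Ftl1, and to Cstb Psap (0.93), Atp6v1a and Esd. Ctsl was closest to Npc2 (0.92), Calr and Xbp1, and Cst3 to Emc3 (0.95), Spcs2 and Atp5c1. Ctsk was closest to Pcyt1a (0.80), Adamtsl4 and Card19.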

How the data were processed

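Single-nucleus RNA-seq was analysed in 4 libraries (2 NS, 2 COL). According to the study's methods, the authors made 10x Genomics 3' libraries, and the submitters' processing notes name Cell Ranger 1.2.0 and the mm10 build. The deposited values were UMI counts per gene and barcode, whole numbers without normalization. No removal of free RNA is named in the sources used here. Nuclei with more than 50 genes and under 5% mitochondrial UMIs were kept. Seurat 5.3.0 clustered them (R 4.3.3, 4994 variable genes, 15 components, resolution 0.8), with 6 variable genes (5 members and Ctsh) left out. Doublets were scored by simulation, and clusters with over 50% doublets were called mixed. Counts were summed by library and cell type (at least 20 nuclei in each library) and tested with edgeR 4.0.16 (TMM, filterByExpr, quasi-likelihood F test, Benjamini-Hochberg over all genes, threshold 0.05). The comparison of microglia with other types had a library term. DESeq2 1.42.0, no filter, each library left out, a replicate block, nuclei thinned to 2000 UMIs, doublets removed and a gate on marker UMIs were alternatives. Patterns used genes with a mean of at least 10 CPM. The scripts were tested on simulated data with 200 changed genes in each tested cell type. There edgeR found 45.5% (neurons) to 76.5% (OPC) of them, with 5 (microglia) to 20 (OPC) false calls. Of the 2-fold changes it found 16% in neurons and 60% in OPC. DESeq2 found 41.5% (microglia) to 55% (oligodendrocytes), with 0 (OPC) to 31 (neurons) false calls. Sequences are RefSeq's and coordinates GENCODE's. Python 3.11.15, numpy 2.4.6, scipy 1.17.1 and pandas 2.3.3 were also used.

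Members and lists were chosen with earlier results of these data known. Named genes were all members, the 3 closest in pattern to each, at most 3 called genes with the largest change per list and cell type, and Apoe and Lgmn. A further gene that this rule names is not reported here. The labels number the libraries 1 and 2 in each group, and p-values measure the spread between these pools, which may be technical. With 2 against 2, a two-sided exact permutation test cannot go below p = 0.333.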

Additional observations from a re-analysis of the deposited data

Results flagged for a closer look

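A change in microglia that differed from the mean change of astrocytes, oligodendrocytes, OPC and neurons, in edgeR's test of that difference, was found for 4 of 9 members, where 5.28% of all genes were higher and 3.83% lower. The difference in log2 fold change was 1.199 for Ctsb, 0.59 for Ctsl, -1.94 for Ctsc and -2.02 for Ctss. Ctsc and Ctss were far lower in the other types, so their differences compare folds from unlike starts. In microglia, mean UMIs per nucleus rose from 0.289 to 0.859 for Ctsc and from 1.25 to 2.62 for Ctss, and COL nuclei had more UMIs in all. In the other types the COL means were at most 0.0867 for Ctsc (astrocytes) and 0.360 for Ctss (neurons). The call for Ctsl was lost without the library term (edgeR adjusted p = 0.45), without NS 1 (0.30) and without COL 1 (0.096). With 2 libraries per group, no sample could be compared with the spread of its own group in search of one that stands apart.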

How the results depend on the processing

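With 2 pooled libraries per group, a change that did not pass is not shown to be absent, and no correction for free RNA was made. A fit without 1 library leaves 1 library in a group. Its p-values and counts of calls then rest on the spread of the other group alone. The counts of called members in microglia, over all nuclei and in the comparison of microglia with the other types stayed within 1.5 times of 4, 6 and 4 under every alternative run. DESeq2 called 2 members in OPC (edgeR 6) and 5 in neurons (edgeR 0). Without the filter on low counts 1 member was called in neurons and 1 (Ctss) in the comparison of neurons with the other types. With nuclei assigned by marker UMIs 1 member (Ctsl) was called in the comparison of oligodendrocytes. With libraries left out in turn the counts ranged from 2 to 5 in astrocytes, 1 to 6 in OPC, 0 to 5 in neurons, and 0 to 1 in the comparison of astrocytes; the lowest values came without COL 2 in astrocytes and without NS 1 in OPC, and the highest in neurons without COL 2.

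With the replicate number as a block 5 members were called in neurons, and no call of a member was lost. Deviations of same-numbered libraries correlated at 0.078 in microglia, 0.16 in astrocytes, 0.16 in oligodendrocytes, 0.10 in OPC, -0.014 in neurons and 0.10 over all nuclei, and no source says that the numbers pair the libraries. The block gave 3740 called genes in microglia, 3670 in astrocytes, 5309 in oligodendrocytes, 3258 in OPC, 864 in neurons and 5563 over all nuclei. Over the alternatives the called genes ranged from 1800 to 3909 in microglia (3509 as reported), 1095 to 3670 in astrocytes (2274), 1920 to 7109 in oligodendrocytes (3756), 488 to 3505 in OPC (2501), 0 to 5442 in neurons (0) and 1603 to 7012 over all nuclei (2416). The share of higher calls over all nuclei, 53.1% as reported, was 42.4% in DESeq2, 41.9% without the filter, 37.4% with the block, 37.6% without NS 1, 37.2% without COL 2 and 63.3% without COL 1, and leaving out the filter moved the median change in microglia by 0.11.

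Changes of sign were seen for values that did not pass. With nuclei assigned by marker UMIs the log2 fold change was 0.12 for Cstb and 0.45 for Ctss in microglia and -0.30 for Cstb in astrocytes, and the difference of microglia from other types was 0.046 for Cst3 and 0.030 for Ctsz. Without the filter Ctss in microglia was 0.045 and Cstb in astrocytes -0.013. With nuclei thinned to 2000 UMIs Ctss in microglia was 0.010, Cstb in astrocytes -0.12 and Ctsk over all nuclei -0.17, and DESeq2 gave -0.0066 for the last. With libraries left out in turn, Cstb ranged from -0.63 to 0.51 in microglia, -0.016 to 0.17 in astrocytes, -0.90 to 0.16 in neurons and -0.28 to 0.58 over all nuclei. Ctsb ranged from -0.22 to 0.81 in astrocytes, -0.063 to 0.64 in oligodendrocytes and -0.051 to 0.68 in neurons. In microglia Ctsl ranged from -0.59 to 0.18 and Ctss from -0.24 to 0.16. Ctsk ranged from -0.12 to 0.40 in neurons and -0.24 to 0.30 over all nuclei. The difference of microglia from the other types ranged from -0.66 to 0.099 for Cst3, -0.21 to 1.04 for Cstb, -0.13 to 0.51 for Ctsd, -1.23 to 1.24 for Ctsk and -0.50 to 0.23 for Ctsz. The causes were not tested.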
